A study of Mus musculus with 9 samples.

Results

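Endothelial cells of the choroid plexus were compared with those of brain capillaries across all genes, using cells that carried the deposited label CP-EC (17 cells) and cells labelled capilEC (787 cells). Together these were 804 of the 1235 cells in the series. The cells came from adult mouse brain: vascular fragments were freed mechanically and with enzymes, digested further to single cells, and read with Smart-seq2, which sequences whole transcripts of one cell per well. No strain, genotype, treatment or sex was given, and all labels came from the same kind of preparation. How cells were given their labels, and what the labels stand for, is not stated in those sources. CP-EC is read here as choroid plexus endothelium, capilEC as capillary endothelium, aEC and vEC as arterial and venous endothelium and MG as microglia. Each label was 1 deposited sample, no animal was named, and cells of a label are not replicates, so no test between labels was possible. Genes that served to label the cells are not independent evidence of a difference, and which genes these were is not given.

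Most brain capillaries form the blood-brain barrier, in which tight junctions seal the gaps between endothelial cells and dedicated carriers move glucose, amino acids and hormones across them. Wnt and norrin signals from the surrounding tissue maintain that state through beta-catenin and LEF/TCF factors. The choroid plexus, which makes cerebrospinal fluid, instead has leaky capillaries with fenestrae, small windows spanned by a diaphragm of PLVAP protein, and its barrier lies in the epithelium around them.

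The CP-EC cells held 3309445 reads in all, with 109825 to 470092 per cell (median 172854), and the capilEC cells held 172998640, with 100364 to 750478 per cell (median 192941). Plate s483s gave 10 of the 17 CP-EC cells, plate s169s gave 4, s482s gave 2 and s480s gave 1, while capilEC had 150 to 223 cells on each plate. For each label, the counts of all its cells were added up and scaled to counts per 1000000 reads (CPM). Intervals in brackets are exact Poisson 95% intervals, or exact Clopper-Pearson 95% intervals for shares of cells. The Poisson intervals cover the counting of reads only and leave out the spread between cells. They do not cover the counting of molecules either, since the amplified reads carry no molecular identifiers and several can stem from 1 molecule. The Clopper-Pearson intervals treat the cells of a label as independent draws, which is not known to hold. No CP-EC cell had counts identical to another cell (0 of 17).

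Both labels carried the general endothelial genes at like levels, and 15 of the 17 CP-EC cells held reads of Plvap, the marker of fenestrated capillaries. Over 16 genes of endothelium in general the median difference was 0.04 on log2(CPM + 5), CP-EC minus capilEC, against -0.38 over all 11565 measured genes. Their summed level ran from 10708 to 32422 CPM over the CP-EC cells (median 20800) and had a median of 22392 CPM over the capilEC cells. Pecam1, an adhesion molecule of all endothelium, ran from 34.1 to 3137 CPM over CP-EC cells (median 2038) and from 0 to 6661 over capilEC cells (median 1212), so the labels overlapped throughout. Cldn5 was the exception among the 16, with 810 against 4425 CPM, and belongs to the junctions described below.

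Several cells stood apart within the CP-EC label. The cells in well K17 of plate s482s and well K15 of plate s483s held no read of Plvap, Gpihbp1, Igfbp3, Cd24a or Ednrb. They held genes that were high in capilEC instead. Slco1c1, a thyroid hormone carrier, was at 747 CPM over these 2 cells, against 28.5 CPM over the other 15 and 1862 CPM in capilEC. Cldn5 was at 3439 CPM over them and at 176 CPM over the other 15 cells. Neither gene is in the capillary list, and Cldn5 was also high in aEC and vEC. Not all their genes were high in capilEC. The cell in well K17 held 1723 CPM of Esm1, a member of the fenestrated list that was at 0.231 CPM in capilEC. These 2 cells supplied 19.4% of the CP-EC reads, so sums over all 17 cells mix both profiles. Values over the 15 cells are given for some genes only, and other CP-EC sums can rest largely on these 2 cells.

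Reads of other cell types also gathered in single cells. The 2 cells in well P20 of plate s482s and well C7 of plate s169s held 9109 and 2827 CPM of the 15 microglia and macrophage genes, against a median of 145 CPM over the CP-EC cells and 178 over capilEC cells. The list summed to 892 CPM in CP-EC, 326 in capilEC and 38802 in MG. Mrc1, Cd163 and Ms4a7, markers of border macrophages, were the only 3 members at 0 in CP-EC. Pf4, also on that list, had reads there, so the list does not show that such macrophages left no trace. Choroid plexus epithelium would be the nearest neighbour of these vessels, and its 16 genes summed to 318 CPM in CP-EC and 145 CPM in capilEC. The median CP-EC cell held 8.53 CPM of them. Their sums were 303 CPM in vEC, 110 in aEC and 42.7 in MG, and 1479 and 927 CPM in the deposited labels PC and FB. The CP-EC sum was thus not particular to that label. Folr1, Clic6, Otx2, Kcne2 and Cldn2 were at 0 in CP-EC. Ttr, the transthyretin that this epithelium secretes in quantity, had reads in 3 CP-EC cells, and Enpp2 (autotaxin) reached 3679 CPM in 1 CP-EC cell. The mural list summed to 111 against 198 CPM and the fibroblast list to 191 against 286 CPM. Single cells led other lists, since the oligodendrocyte list had a CP-EC sum of 230 CPM and a median CP-EC cell of 0, and the erythroid list a sum of 40.8 CPM and a median of 0. The part of these other cell types in the differences below was not tested, apart from the recounts without the cells named.

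By size, 67 genes were higher in CP-EC (0.579% of 11565 measured) and 189 genes were higher in capilEC (1.63%). The size rule asked for at least 50 CPM in the higher label, a read in at least 50% of that label's cells and a 4-fold difference on log2(CPM + 5), a scale that understates the change of genes with low counts. DESeq2 size factors, which raised the median difference of all measured genes by 0.27, turned this split into 103 and 160. On the 4-fold difference alone, 594 genes (5.14%) were higher in CP-EC and 2112 (18.3%) higher in capilEC. The share of cells does much of the selection here, since a gene read in 8 of 17 CP-EC cells is not counted as higher there. Over the 15 cells with Plvap, the counts were 81 and 269, of which 61 and 179 were also among the 67 and 189.

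The plot of CP-EC level against capilEC level shows both sets off the diagonal. Single cells carried part of the CP-EC set: without the CP-EC cell that held most reads of a gene, 45 of the 67 genes stayed at least 4-fold higher and 22 did not. On the only plates with at least 3 CP-EC cells, 55 of the 67 and 185 of the 189 genes kept their direction on each. The genes named from these sets are those that met both conditions. All genes tied to single cells are thereby left unnamed unless a gene list holds them.

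**Figure D1:**
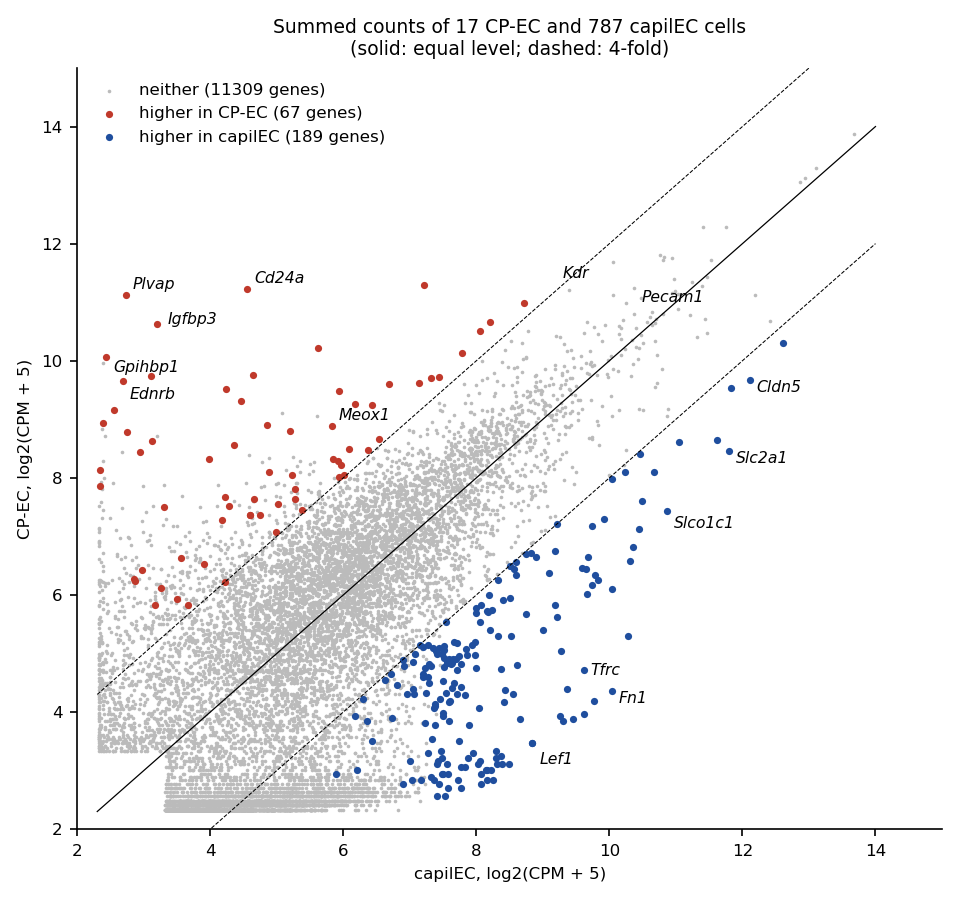
Level of each measured gene in the summed capilEC cells (x axis) and CP-EC cells (y axis), both as log2(CPM + 5), with the 67 genes higher in CP-EC in red and the 189 higher in capilEC in blue. Plvap and Gpihbp1 lie near the left edge at almost no capilEC reads, Cldn5 and Slc2a1 keep a clear CP-EC level below the 4-fold line, and Pecam1 lies by the line of equal level.

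Of the gene lists, that of fenestrated endothelium had the most members higher in CP-EC. The size rule was met by 8 of 16 measured members there and by 1 in capilEC, with a median difference of 4.95. Over all measured genes the shares were 0.579% and 1.63%. This list and those below were chosen with earlier results of these data known, so their counts are descriptions and not independent support. Plvap, which builds the diaphragm of fenestrae, ran from 0 to 6474 CPM over CP-EC cells (median 1656) and from 0 to 543 over capilEC cells (median 0). Apart from the 2 cells with no read, 14 of the 15 others lay above the highest capilEC cell. The summed level was 2223 CPM (2173 to 2275) against 1.62 CPM (1.43 to 1.82), a difference of 8.40 that became 8.19 without its top cell. With every cell thinned to 100000 reads, 88.2% of CP-EC cells (63.6 to 98.5%) still held a Plvap read. The thinned share was 5.21% for capilEC (3.76 to 7.00%) and 5.84% for MG. The summed Plvap level was higher in MG, at 9.75 CPM, than in capilEC. The origin of the Plvap reads in capilEC and MG was not tested.

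Gpihbp1, which carries lipoprotein lipase to the capillary lumen, ran from 0 to 3697 CPM over CP-EC cells (median 1100) and did not exceed 55.7 CPM in any capilEC cell. All 11 CP-EC cells with a Gpihbp1 read lay above every capilEC cell. Its sums were 1061 CPM (1026 to 1097) and 0.405 CPM (0.315 to 0.511), a difference of 7.62. Cd300lg, a mucin-like receptor of endothelium, was less cleanly separated, with 0 to 2996 CPM over CP-EC cells (median 516) and 0 to 3069 CPM over capilEC cells (median 0), so no CP-EC cell lay above the highest capilEC cell. Only 76 of the 787 capilEC cells held a Cd300lg read, and the sums were 726 and 13.8 CPM. Rbp7, a retinol-binding protein, was read in 9 CP-EC cells and 14 capilEC cells, with sums of 277 and 0.0809 CPM. Its median CP-EC cell was at 9.11 CPM.

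The lipid phosphate phosphatases Plpp1 and Plpp3, listed under the older names Ppap2a and Ppap2b, break down lysophosphatidic acid and related lipids at the cell surface. Ppap2a ran from 0 to 5871 CPM over CP-EC cells (median 3081) and from 0 to 2809 over capilEC cells (median 5.24), and 9 CP-EC cells lay above every capilEC cell. Ppap2b was at 857 against 20.04 CPM, with reads in 14 CP-EC and 147 capilEC cells. On plates s169s and s483s the differences were 4.22 and 3.81 for Ppap2a and 5.52 and 5.99 for Ppap2b.

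Igfbp3, a secreted binding protein of insulin-like growth factors, ran from 0 to 6010 CPM over CP-EC cells (median 621) and from 0 to 831 over capilEC cells (median 0). Its sums were 1571 CPM (1529 to 1614) and 4.23 CPM (3.92 to 4.54), and aEC held 122 CPM. Of the list of growth factors of that family and their binding proteins, Igfbp7 stood at 3563 against 1727 CPM and Igfbp4 at 415 against 4.18 CPM in 7 CP-EC cells, while the receptor Igf1r was at 2.72 against 173 CPM and met the rule in capilEC. The median of its 6 measured members was 1.96.

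Ednrb, the B receptor for endothelins, ran from 0 to 3389 CPM over CP-EC cells (median 272) and from 0 to 470 over capilEC cells (median 0). It was read in 12 CP-EC cells, and 7 of them lay above every capilEC cell. Its sums of 799 CPM (769 to 830) and 1.43 CPM (1.26 to 1.62) differed by 6.97. Ramp3, a partner of the calcitonin-like receptor, was at 713 against 56.4 CPM with reads in 14 and 191 cells. These were the 2 of 23 vasoactive genes that met the rule in CP-EC, and 0 met it in capilEC. The median of the 23 was 0.05 over all CP-EC cells and -0.43 over the 15 with Plvap, a change of sign. Calcrl itself was at 253 against 156 CPM, Ramp2 at 1564 against 1591, and Nos3, the nitric oxide synthase of endothelium, at 279 against 568, within 4-fold in each case.

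The remaining measured members of the fenestrated list behaved in 3 ways. Esm1, Exoc3l2 and Aqp1 were far higher in CP-EC by their sums but were read in 7, 4 and 2 cells, so they did not meet the rule. Aqp1, a water channel, fell from 135 to 0.675 CPM without its top cell. Kdr, Emcn and Nrp1 were higher by under 4-fold, and Ehd2 stood at 220 against 204 CPM. Vwa1, a matrix protein, met the rule in capilEC at 333 against 1399 CPM, and 1 CP-EC cell held 3587 CPM of it. Cd36 and Tnfrsf11b, the 2 listed members outside the 16 measured, had no read in CP-EC.

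**Figure D2:**
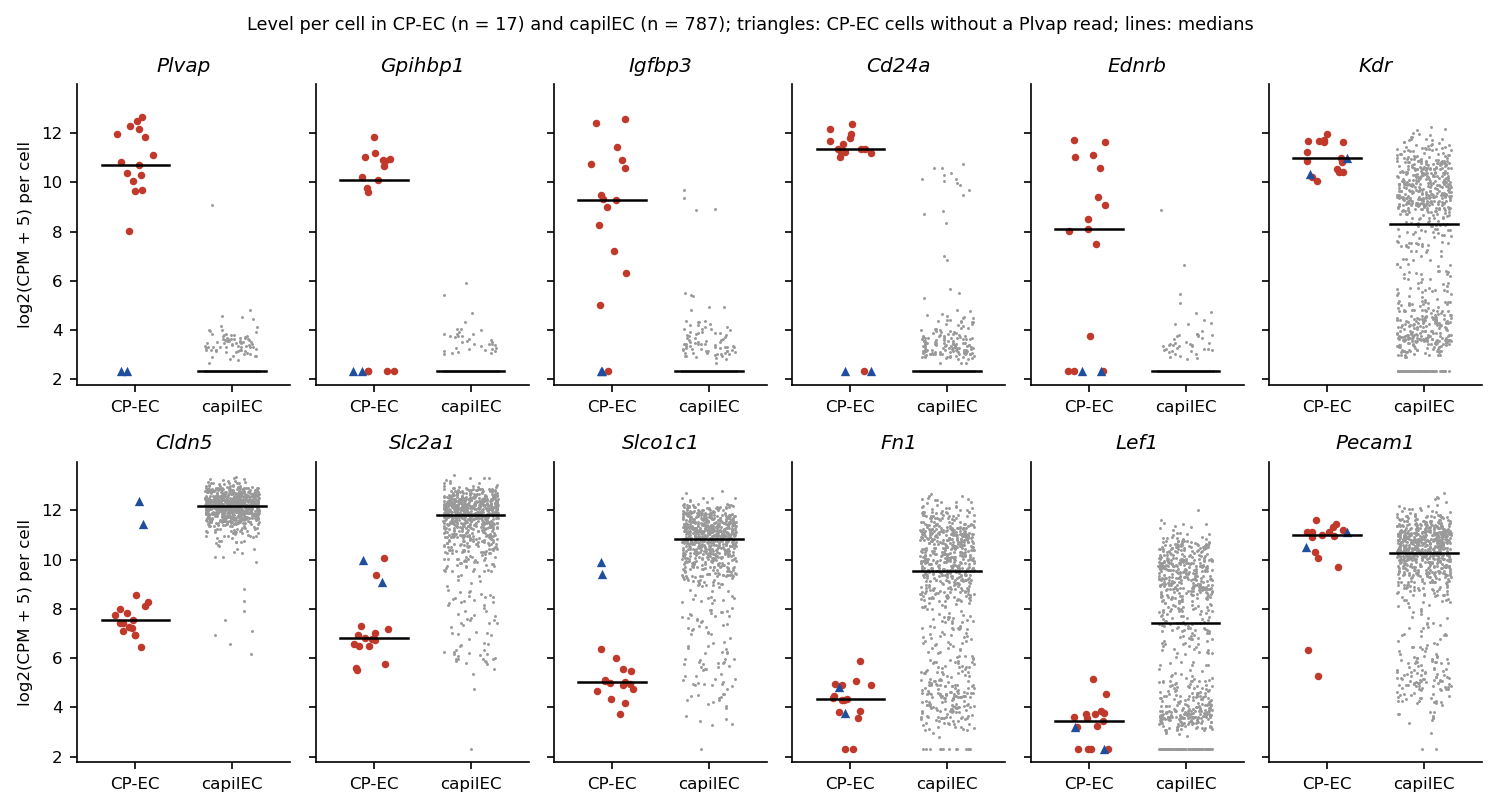
Level in each cell, as log2(CPM + 5), of 12 genes in the 17 CP-EC and 787 capilEC cells; lines are medians over cells and blue triangles are the 2 CP-EC cells with no Plvap read. Those 2 cells sit at 0 reads for Plvap, Gpihbp1, Igfbp3, Cd24a and Ednrb and lie above the other 15 CP-EC cells for Cldn5 and Slco1c1.

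Outside that list, Cd24a had the most even separation. Cd24a, a short sialoglycoprotein held by a lipid anchor, ran from 0 to 5337 CPM over CP-EC cells (median 2578) and from 0 to 1732 over capilEC cells (median 0). All 14 CP-EC cells with a read lay above every capilEC cell. The sums were 2387 CPM (2334 to 2440) and 18.5 CPM (17.9 to 19.2), with 121 CPM in aEC. After thinning, 82.4% of CP-EC cells and 12.7% of capilEC cells held a read, beside 13.1% of MG cells.

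Other metabolic and carrier genes were read in a smaller part of the CP-EC cells. Slc43a3, a carrier of purine nucleobases, was at 845 against 3.65 CPM, with reads in 9 of the 17 CP-EC cells. Car8, a relative of the carbonic anhydrases without their activity, was at 567 against 0.861 CPM with reads in 11 and 34 cells. Upp1, a uridine phosphorylase, stood at 341 against 2.67 CPM, with a median CP-EC cell of 4.13 CPM. Thrsp, a regulator of fat synthesis, was at 474 against 23.8 CPM, with a median CP-EC cell of 8.52 CPM, and MG held 111 CPM of it. Mgll, which breaks down monoacylglycerols, was the other fatty acid gene besides Gpihbp1 to meet the rule, at 774 against 97.6 CPM, out of 16 measured. The median of those 16 was 0.34.

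The next named genes higher in CP-EC had varied roles. Jam3, a junctional adhesion molecule, had sums of 632 and 17.03 CPM but a median CP-EC cell of 8.52 CPM, so a few cells held most of it. Mfap2, a protein of microfibrils, was at 389 against 3.69 CPM, and Sncg, gamma-synuclein, at 372 against 15.5 CPM. Gngt2, a G protein subunit, was read in 15 CP-EC cells at 440 against 31.7 CPM, and MG held 229 CPM. Tnfaip2, a gene induced by tumour necrosis factor, was read in 10 CP-EC and 10 capilEC cells, at 228 against 0.0578 CPM. Fam167b stood at 485 against 0.254 CPM, with 61.4 CPM in MG.

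Regulators and interferon-inducible genes closed the named set. Ldb2, a cofactor of LIM-domain transcription factors, was at 436 against 1.75 CPM, with a median CP-EC cell of 4.45 CPM. Mndal and Ifi203, both of the interferon-inducible p200 family, were at 175 against 4.83 CPM and 199 against 13.6 CPM. Their median CP-EC cells were at 8.66 and 30.4 CPM. Of the 25 genes of antigen presentation and interferon response, 0 met the rule in either direction, and their median was -0.09. Nr4a1, a nuclear receptor induced within minutes of a stimulus, was at 611 against 67.5 CPM, but its median cell was at 17.04 CPM in CP-EC and 5.79 CPM in capilEC. It was the only 1 of 17 immediate early genes to meet the rule, and MG and aEC held 1022 and 457 CPM of it.

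Among 36 measured transcription factors of endothelium, 1 met the rule in CP-EC and 6 in capilEC. Meox1, a homeobox factor, ran from 0 to 1850 CPM over CP-EC cells (median 12.99) and from 0 to 2197 over capilEC cells (median 0), with sums of 470 CPM (447 to 494) and 51.8 CPM (50.7 to 52.8). It was at 0.319 CPM in aEC. Those on the other side included Lef1, Foxq1, Sox17, Lmo2 and Foxf2. Factors that all endothelium shares, Sox18 at 836 against 1005 CPM, Epas1 at 1045 against 1376 and Sox7 at 323 against 330, were within 4-fold.

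Of 25 measured genes of the Wnt and norrin pathway, 9 met the rule in capilEC and 0 in CP-EC, with a median of -2.56. The 9 were mostly factors and targets of the pathway and not its receptors. Lef1, the transcription factor that binds beta-catenin, ran from 0 to 30.9 CPM over CP-EC cells (median 5.78) and from 0 to 4097 over capilEC cells (median 168). The highest CP-EC cell lay above 320 of the capilEC cells, so the ranges overlapped at low levels although the sums were 6.04 CPM (3.69 to 9.33) and 454 CPM (451 to 458). MG held 11.8 CPM.

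Tnfrsf19, a target of beta-catenin, was at 4.53 against 326 CPM and did not pass 16.9 CPM in any CP-EC cell. Apcdd1 and Nkd1, feedback inhibitors of the pathway, were at 12.99 against 337 CPM and 56.5 against 358 CPM. Nkd1 fell to 6.69 CPM without its top cell. The forkhead factors Foxq1 and Foxf2 stood at 3.02 against 281 CPM and 48.3 against 298 CPM, and Sox17 at 34.1 against 360 CPM. Reck, which with Adgra2 forms the receptor complex for Wnt7 ligands, was at 23.6 against 193 CPM.

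The receptors themselves did not move together. Adgra2 was at 1.21 against 133 CPM but was read in too few capilEC cells to meet the rule. The same held for Axin2, the most general target gene, at 1.81 against 109 CPM, and for Tcf7 at 0.906 against 93.7 CPM, a CP-EC value of 3 reads. Fzd4, the norrin receptor, stood at 113 against 50.6 CPM with reads in 2 CP-EC cells, and its partner Tspan12 at 569 against 170 CPM with reads in 13. Ctnnb1, which encodes beta-catenin, was at 786 against 1671 CPM.

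The 250 bases upstream of a gene's start are shown for some genes, since the Wnt list holds a factor whose DNA letters are known. The windows of Ednrb, Kdr, Cldn5, Slc2a1, Ocln and Nkd1 were also searched, held neither core described below and are not shown. Among the genes named here every window with a core is printed, so the printed windows do not compare the labels. Sequences are from RefSeq on build GRCm38.p6, 5′ to 3′ on the gene's strand. Capitals mark the core letters of LEF/TCF sites, CTTTGA, and a core of ETS family sites, AGGAAG, each read on both strands, so that the other strand shows TCAAAG and, for the ETS core, CTTCCT. The Lef1 window at chr3:131156044-131156293 (plus strand) precedes 1 of 4 listed starts, lies within Lef1 and overlaps none of its exons. The 3 other Lef1 windows held neither core. The Tnfrsf19 window at chr14:61037988-61038237 (minus strand) precedes 1 of 2 listed starts and overlaps 120 exon bases of the noncoding gene Gm41168, and the other Tnfrsf19 window held neither core. The windows of Slco1c1 at chr6:141524104-141524353 (plus strand) and Igfbp3 at chr11:7213924-7214173 (minus strand) precede the only listed start and overlap no annotated gene.
Lef1: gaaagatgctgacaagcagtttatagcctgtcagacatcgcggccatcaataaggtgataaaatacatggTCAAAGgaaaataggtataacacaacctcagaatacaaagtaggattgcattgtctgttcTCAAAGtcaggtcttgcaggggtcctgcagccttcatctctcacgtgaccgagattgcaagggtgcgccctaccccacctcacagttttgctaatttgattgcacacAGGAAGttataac
Tnfrsf19: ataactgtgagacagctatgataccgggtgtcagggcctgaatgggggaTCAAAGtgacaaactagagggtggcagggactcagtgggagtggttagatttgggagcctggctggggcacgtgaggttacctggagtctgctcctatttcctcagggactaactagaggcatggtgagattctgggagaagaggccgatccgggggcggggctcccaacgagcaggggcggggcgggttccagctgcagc
Slco1c1: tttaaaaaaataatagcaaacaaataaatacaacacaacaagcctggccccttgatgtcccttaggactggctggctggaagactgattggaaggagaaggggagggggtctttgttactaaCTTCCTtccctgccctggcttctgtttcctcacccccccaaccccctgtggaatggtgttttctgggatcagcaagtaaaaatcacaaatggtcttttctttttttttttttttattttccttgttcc
Igfbp3: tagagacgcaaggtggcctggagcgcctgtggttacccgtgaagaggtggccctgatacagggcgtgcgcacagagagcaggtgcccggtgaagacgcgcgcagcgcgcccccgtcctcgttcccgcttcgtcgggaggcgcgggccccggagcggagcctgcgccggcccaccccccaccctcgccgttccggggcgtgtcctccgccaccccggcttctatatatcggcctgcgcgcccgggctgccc
Lef1 and Tnfrsf19 were the 2 of 5 Wnt-list genes higher in capilEC with a listed window that held CTTTGA. Over all 150 genes higher in capilEC with a window the share was 19.3%, over 38 genes higher in CP-EC it was 10.5%, over 8666 measured genes 12.9% and over all 27025 genes 15.8%. The AGGAAG core was in 44.7% of the CP-EC set, 32.0% of the capilEC set and 31.8% of measured genes. A match is a run of letters and not a shown binding site.

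Carriers of the barrier were lower in CP-EC as a group: 14 of 26 measured met the rule in capilEC, 0 in CP-EC, and all 26 had a negative difference. Their median was -2.48, and -3.83 over the 15 CP-EC cells with Plvap. Slc2a1, the glucose carrier GLUT1, ran from 40.5 to 1057 CPM over CP-EC cells (median 109) and from 0 to 10935 over capilEC cells (median 3602). No CP-EC cell reached the capilEC median, and 104 capilEC cells lay below the highest CP-EC cell. The sums were 346 CPM (326 to 367) and 3573 CPM (3564 to 3582), and MG held 262 CPM.

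Slco1c1 and Slco1a4, which carry thyroid hormones and other organic anions, showed how much the 2 cells with no Plvap read weighed. Slco1c1 ran from 8.41 to 949 CPM over CP-EC cells (median 27.3) and from 0 to 7044 over capilEC cells (median 1818). Its difference was -3.43 over all 17 cells and -5.80 over the 15. Slco1a4 was at 394 against 3128 CPM, and at 49.1 CPM over the 15 cells, below the 104 CPM of MG. The organic anion carrier Slc22a8 did likewise, with 189 against 1435 CPM and 26.3 CPM over the 15.

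Carriers of amino acids and vitamins were lower as well. Slc7a1, for cationic amino acids, ran from 0 to 25.6 CPM over CP-EC cells (median 8.66) and from 0 to 7208 over capilEC cells (median 110), with a difference of -5.57. Slc38a3 and Slc38a5, glutamine carriers, were at 34.1 against 1238 CPM and 83.1 against 764 CPM. The cell in well K17 held 157 and 479 CPM of them. Slc19a3, the thiamine carrier, was at 4.23 against 308 CPM. Slc7a5, the large neutral amino acid carrier of the barrier, had 214 against 520 CPM, under 4-fold, and over the 15 cells it was at 9.00 CPM. The monocarboxylate carrier Slc16a1 was at 248 against 1048 CPM, with 1304 CPM in the cell in well K17. The iron exporter Slc40a1 was at 95.2 against 816 CPM.

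Of 9 measured efflux pumps, 2 met the rule in capilEC, and the median was -0.93, or -2.14 over the 15 cells with Plvap. Abcb1a, which encodes P-glycoprotein, ran from 0 to 368 CPM over CP-EC cells (median 14.6) and from 0 to 4922 over capilEC cells (median 735), with sums of 76.4 CPM (67.3 to 86.5) and 875 CPM (871 to 880). Abcc4 was at 103 against 576 CPM and fell to 9.25 CPM without its top cell. Abcg2, another drug pump, kept a level in CP-EC of 353 against 1218 CPM, under 4-fold.

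Uptake receptors were divided in the same manner, with 4 of 23 measured genes of vesicle transport and uptake higher in capilEC and a median of -0.90, or -1.45 over the 15 cells. Tfrc, the transferrin receptor that brings iron into the brain, ran from 0 to 85.1 CPM over CP-EC cells (median 11.6) and from 0 to 6009 over capilEC cells (median 404). Mfsd2a, a lipid carrier that keeps vesicle traffic low at the barrier, was at 140 against 851 CPM and at 11.3 CPM over the 15 cells. Spock2 was at 91.0 against 1261 CPM, with 532 CPM in the cell in well K17, and Igf1r was the fourth. Genes of the caveolar coat were within 4-fold: Cav1 was at 593 against 941 CPM, Cav2 at 464 against 669 CPM, and Cavin2 (listed as Sdpr) at 450 against 460 CPM.

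Junction genes changed in part, with 3 of 16 measured higher in capilEC, 0 in CP-EC and a median of -0.85. Cldn5, the main claudin of the barrier, ran from 82.6 to 5270 CPM over CP-EC cells (median 180) and from 67.6 to 10556 over capilEC cells (median 4636). The 15 cells with Plvap were at 176 CPM and the 2 without at 3439 CPM, and capilEC summed to 4425 CPM (4415 to 4435). Ocln, occludin, was at 28.1 against 614 CPM. Lsr, which builds junctions where 3 cells meet, was at 81.6 against 797 CPM and at 9.56 CPM without its top cell. Its reads could not be fully separated from those of the overlapping row Gm4673. Members of that list within 4-fold included Cdh5, VE-cadherin, at 558 against 298 CPM, the catenin Ctnna1 at 394 against 464 CPM, and F11r, a junctional adhesion molecule, at 845 against 465 CPM.

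**Figure D3:**
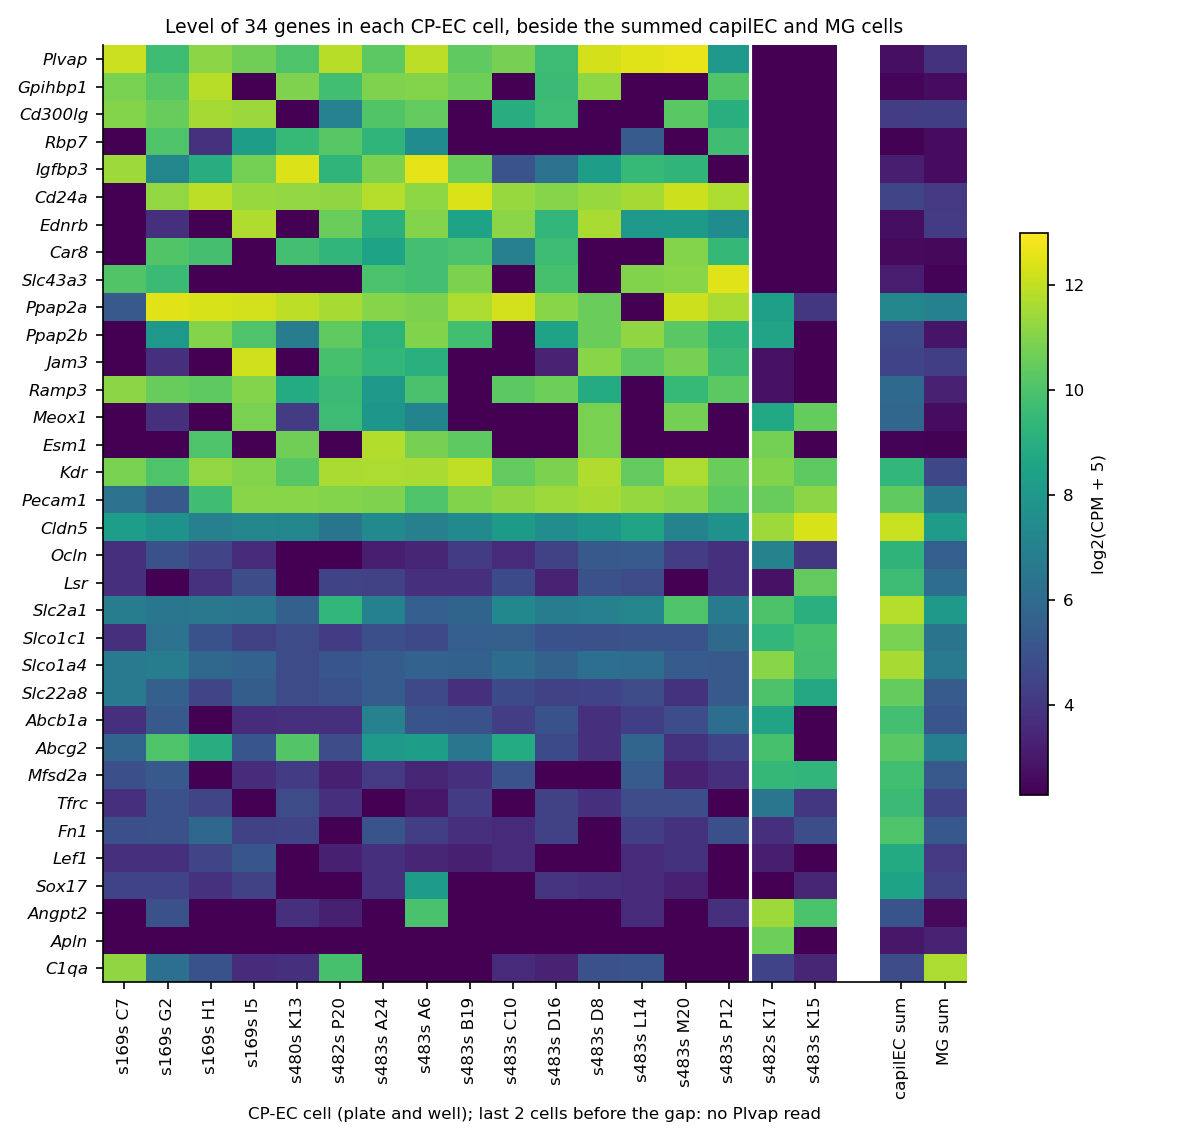
Level, as log2(CPM + 5), of 34 genes in each of the 17 CP-EC cells, named by plate and well, with the summed capilEC and MG cells at the right. The 2 columns after the white line are the cells with no Plvap read, which carry Cldn5, Slco1c1 and Slco1a4 and lack Gpihbp1, Igfbp3, Cd24a and Ednrb.

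Receptors for vascular endothelial growth factor were present in both labels. Kdr, the main signalling receptor, ran from 1057 to 3969 CPM over CP-EC cells (median 2034) and from 0 to 4878 over capilEC cells (median 312). All 17 CP-EC cells lay above the capilEC median, and 53 capilEC cells reached the CP-EC median. The sums of 2374 CPM (2322 to 2428) and 668 CPM (664 to 672) were under 4-fold apart, as were those of the co-receptor Nrp1 at 1289 and 361 CPM. Flt1, the decoy receptor, was at 1681 against 2778 CPM.

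Of 19 measured genes of this pathway and of angiopoietin signalling, 0 met the rule in either direction. Their median was 0.80 over all cells and -0.23 over the 15 with Plvap, a change of sign. Esm1, a proteoglycan of endothelium, was at 990 against 0.231 CPM and was read in 7 CP-EC cells, all above every capilEC cell. Angpt2, an antagonist of the Tie2 receptor, was at 545 against 28.8 CPM, of which the 2 cells without Plvap held 2275 CPM and the 15 others 128 CPM. Apln was read in 1 CP-EC cell only, that in well K17. Tek, which encodes Tie2, was at 505 against 736 CPM.

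Matrix genes differed by chain. Fn1, fibronectin, had the greatest difference of the named genes higher in capilEC, at -5.69. It ran from 0 to 54.6 CPM over CP-EC cells (median 15.5) and from 0 to 6475 over capilEC cells (median 738), with sums of 15.4 CPM (11.5 to 20.3) and 1045 CPM (1041 to 1050), beside 32.9 CPM in MG. Lamb2, a laminin beta chain, was at 1.81 against 264 CPM, whereas the other beta chain Lamb1 was at 133 against 0.988 CPM with reads in 5 CP-EC cells. The collagen IV chains Col4a1 and Col4a2 were at 461 against 285 CPM and 799 against 314 CPM. Over the 21 measured matrix genes, 3 met the rule in capilEC and 0 in CP-EC. Their median was 0.45 over all CP-EC cells and -0.23 over the 15 with Plvap, a change of sign.

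Other named genes higher in capilEC included several of metabolism. Gatm, of creatine synthesis, was at 6.04 against 453 CPM, and Glul, glutamine synthetase, at 16.01 against 655 CPM with 948 CPM in MG. Genes of lipid and membrane handling were Degs2 at 10.3 against 605 CPM, Far2 at 2.12 against 280, Sgpp2 at 2.72 against 264 and the flippase Atp10a at 1.51 against 213. The raft proteins Pllp and Mal were at 13.3 against 866 CPM and 9.37 against 627 CPM.

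The remaining genes of that set had varied roles. Plat, tissue plasminogen activator, ran from 0 to 21.9 CPM over CP-EC cells (median 2.89) and from 0 to 5734 over capilEC cells (median 9.54), so the medians lay close although the sums were 3.63 and 355 CPM. Tspan5 was at 2.12 against 301 CPM, Ndnf at 3.63 against 330, Grb14, an adaptor of the insulin receptor, at 3.02 against 294, Tpd52 at 3.63 against 311, Thsd1 at 3.02 against 279 and Gbp3 at 5.14 against 310. Net1, an activator of RhoA, had 3 CP-EC reads (0.906 CPM) against 180 CPM. Of the 189 genes higher in capilEC, 131 were no higher in CP-EC than in MG, and 162 over the 15 cells with Plvap. These genes were selected for a low CP-EC level, and the same share over all measured genes was not computed. Other non-endothelial labels were not counted in this way.

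**Figure D4:**
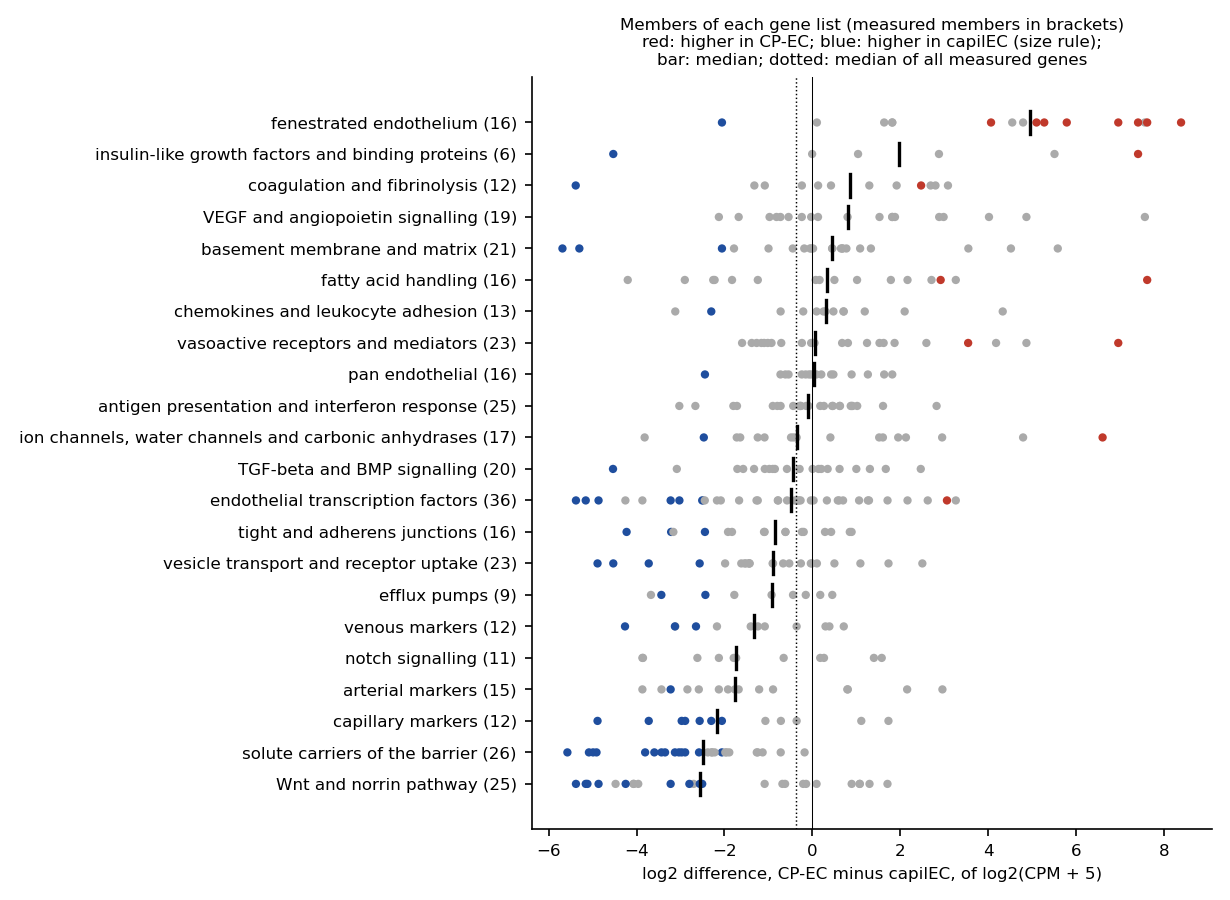
Difference of each measured list member, CP-EC minus capilEC on log2(CPM + 5), for 22 gene lists ordered by median (black bar); red and blue points met the size rule in CP-EC and capilEC. The fenestrated list lies highest at a median of 4.95 and the solute carriers and Wnt and norrin pathway lowest at -2.48 and -2.56, with the median of all measured genes at -0.38 as a dotted line.

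The other lists held few genes past the rule. Among 12 coagulation genes (median 0.86), Tfpi, an inhibitor of tissue factor, was higher in CP-EC at 315 against 52.4 CPM, and without its top cell it was just under 4-fold at 1.99. Plat was the 1 higher in capilEC. Among 17 ion channel, water channel and carbonic anhydrase genes (median -0.36), Car8 met the rule in CP-EC and Car2, at 47.4 against 285 CPM, in capilEC. Car4, a surface carbonic anhydrase of capillaries, was at 1285 against 1646 CPM.

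Chemokine and adhesion genes had a median of 0.30 over 13, which turned to -0.52 over the 15 CP-EC cells with Plvap. Only Cxcl12 was past the rule, at 732 against 3621 CPM. The TGF-beta and BMP list had a median of -0.43 over 20, with only Tgfb2 past it, at 2.12 against 160 CPM. The receptors Eng at 2334 against 2022 CPM and Acvrl1 at 333 against 499 CPM were within 4-fold. Of 11 notch genes 0 met the rule in either direction (median -1.73), and Notch1 was at 155 against 549 CPM while the target Hes1 was at 532 against 198 CPM. The immediate early list, which can record the stress of dissociation, had a median difference of 0.30, and its summed level was 5624 CPM in CP-EC against 3311 in capilEC. The median cell held 5662 CPM of it in CP-EC and 1993 CPM in capilEC. Its part in the differences was not tested.

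CP-EC did not hold the marker sets of arterial or venous endothelium at the level of those labels. The 18 arterial genes summed to 2036 CPM in CP-EC, 2021 in capilEC and 7075 in aEC, and 1 of 15 measured met the rule in capilEC (median -1.76). The 16 venous genes summed to 1855 CPM in CP-EC, 3368 in capilEC and 10103 in vEC. Of these, 3 of 12 measured were higher in capilEC (median -1.32, and -2.71 over the 15 CP-EC cells with Plvap). Car4, whose levels are given above, is also in the capillary list and made up much of the venous sums in CP-EC and capilEC. The 12 capillary genes summed to 7805 CPM in CP-EC, 19554 in capilEC, 11422 in aEC and 9613 in vEC. Of the 12, 7 were higher in capilEC than in CP-EC, with a median of -2.18, or -3.07 over the 15. Rgcc, a capillary gene, went the other way by under 4-fold, at 1456 against 434 CPM.

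Set against aEC and vEC as well as capilEC, 44 genes were higher in CP-EC than in each (0.38% of measured genes) and 126 were lower than in each (1.09%). These comparisons share the 17 CP-EC cells. Plvap was at 6.26 CPM in aEC and 0.708 in vEC, and Gpihbp1 at 0.543 and 3.54. Cldn5 was at 3868 and 3269 CPM, Lef1 at 265 and 300 CPM and Fn1 at 631 and 553 CPM. Mfsd2a, by contrast, was at 362 CPM in aEC and 55.7 CPM in vEC, and the 140 CPM of all 17 CP-EC cells lay between them. Over the 15 cells with Plvap, Mfsd2a was at 11.3 CPM, below both.

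With each CP-EC cell left out in turn, 68 to 87 genes were higher in CP-EC and 186 to 246 in capilEC. Leaving out plate s483s, which held 10 of the 17 CP-EC cells, gave 124 and 372, and the median difference of all measured genes fell by 0.79. These included 43 of the 67 and 150 of the 189 genes. With the median CPM per cell in place of the summed level the split turned, to 1.46% of measured genes higher in CP-EC and 1.21% higher in capilEC. Only 31 of the 67 and 51 of the 189 genes were among these, and the median of all measured genes rose by 0.38. C1qa, a complement gene of microglia, met the rule in CP-EC at 161 against 21.7 CPM, but it changed sign to -0.76 without the 2 cells highest in the microglia list.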

How the data were processed

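Raw read counts per gene and cell were deposited by the authors together with a type label for every cell, per the file headers. The submitters' processing notes list featureCounts, Subread 1.4.6-p5 and SAMtools 1.16.1, and name both GRCm38 and GRCm39, with no role given for either. Of 46517 gene rows, 11565 exceeded 5 CPM in either label and are called measured. Reads in overlapping gene models can be counted for each. No cell was filtered out, 0 columns were left out and no doublet caller was run.

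Counts were summed by label, scaled to CPM and compared on log2(CPM + 5) with Python 3.11.15, numpy 2.4.6, pandas 2.3.3 and scipy 1.17.1, with edgeR 4.0.16 and DESeq2 1.42.0 for alternative scaling factors only. The size rule was also run on simulated cells. The changed genes there were drawn from those already read in most capilEC cells and were given a large shift. That run therefore does not measure how often the rule errs in these data. Named genes are the first 25 in each direction by difference among those past the size rule with 1 direction on every plate with 3 or more CP-EC cells and at least 4-fold apart without the top CP-EC cell, plus members of 33 gene lists. Mitochondrial, ribosomal protein, predicted and clone-named genes and pseudogenes were counted and not named. The genes compared, the lists and the rules were chosen with earlier results of these data known. Of 608 list entries, 0 were absent and 5 appear under an older symbol. Alternatives were other scalings, pseudocounts of 1 and 20 CPM, other minimums, thinning to 100000 reads, and leaving out plates, cells or top cells. Lists not described in the report had medians of -0.12 (mural cells, 1 of 4 measured higher in capilEC), -0.57 (fibroblasts, 1 measured), 1.34 (microglia, 1 of 10 higher in CP-EC), -1.00 (astrocytes, 7 measured), 0.97 (oligodendrocytes, 3), -1.55 (neurons, 4), -1.63 (ependymal cells, 3), 0.08 (erythroid cells, 4), -0.81 (lymphatic endothelium, 1) and 1.39 (choroid plexus epithelium, 3), with no call where none is given.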

Additional observations from a re-analysis of the deposited data

How the results depend on the processing

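No paired analysis was possible because each label was 1 sample. Of the 50 genes named by rank, 22 stayed past the size rule in all 36 alternatives, 28 fell below it in at least 1 and 0 changed sign. The alternatives without the 2 CP-EC cells that held no Plvap read, with the median CPM per cell, and without the 2 cells highest in the microglia list were chosen after seeing the data. The counts of genes higher in CP-EC, higher in capilEC, higher in CP-EC than in capilEC, aEC and vEC each, and lower than in each were 67, 189, 44 and 126. Set against the 11565 measured genes, these were 0.579%, 1.63%, 0.380% and 1.09%. On the same base they were 3.64%, 6.54%, 2.18% and 3.37% without a minimum share of cells, and 1.07%, 3.22%, 0.700% and 2.15% without plate s483s. Without the top CP-EC cell of each gene, which lowers CP-EC by construction, the first 2 and the last were 0.380%, 3.49% and 2.48%. Shares after thinning gave 1.05% higher in capilEC and 0.579% lower than in each. DESeq2 size factors gave 0.891% higher in CP-EC. The median CPM per cell gave 1.46% higher in CP-EC against 1.21% higher in capilEC, which turns the split, and 0.588% higher than in each. Without the 2 cells that held no Plvap read, 1.74% were lower than in each. Each CP-EC cell left out in turn gave 0.588% to 0.752%, 1.61% to 2.13%, 0.346% to 0.493% and 1.05% to 1.53%. With 16 CP-EC cells the 50% minimum for CP-EC is met by fewer cells than with 17.

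Of the list medians at least 0.5 from 0, those below changed sign, with the cause not tested. Without the 2 cells that held no Plvap read, smaller medians also did: matrix from 0.45 to -0.23, chemokines and adhesion from 0.30 to -0.52 and vasoactive genes from 0.05 to -0.43. Other medians within 0.5 of 0, the general endothelial one included, changed sign under some of the other alternatives. The VEGF and angiopoietin median became -0.26 without plate s482s, -0.47 without top cells, -0.19 without the cell in well K17 and -0.23 without the 2 cells that held no Plvap read. The microglia median became -0.31 without plate s482s, -0.45 without top cells and also without the cell in well P20, -0.040 without cells carrying markers of other types, -0.37 by median CPM and -0.63 without the 2 cells highest in that list. The oligodendrocyte median became -0.80 without plate s480s, -1.53 without plate s483s, and -0.66 without top cells or the cell in well K13. The fibroblast median became 0.70 without plate s483s and the lymphatic median 0.55 by median CPM. The difference of C1qa became -0.35 by median CPM and -0.76 without the 2 cells highest in the microglia list. With each CP-EC cell left out in turn, the VEGF and angiopoietin median ran from -0.19 to 0.92, the microglia median from -0.45 to 1.51 and the oligodendrocyte median from -0.66 to 1.18. At the CP-EC depth, 3 reads are 0.906 CPM, and lower levels rest on fewer reads.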

Other observations

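Beyond the genes read in most CP-EC cells, 354 genes were at least 4-fold higher in CP-EC at 50 CPM or more but were read in under 50% of its cells, and 262 of these lost the 4-fold difference without their top cell. Among the 32 that were read in at least 25% of the cells, kept 4-fold without the top cell and had 1 direction on both plates, Btnl9, a butyrophilin-like surface protein, was at 414 against 0.324 CPM with reads in 8 CP-EC and 43 capilEC cells. Col13a1, a membrane collagen, was at 249 against 0.283 CPM with reads in 6 and 14 cells. Piezo2, a mechanically gated channel, was at 341 against 1.37 CPM with reads in 7 and 11 cells. Ces2e, a carboxylesterase, was at 309 against 0.202 CPM with reads in 8 and 13 cells. These are values with no test, and they were picked after their levels were seen.

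The 2 CP-EC cells with no Plvap read also differed from each other. The cell in well K17 held 1600 CPM of Apln, the ligand apelin, and 779 CPM of Adm, adrenomedullin, both at 0 over the 15 cells with Plvap, and 853 CPM of the chemokine-scavenging receptor Ackr2. The cell in well K15 held 4021 CPM of Pcdhgc3, a clustered protocadherin, against 4.13 CPM over the 15. Neighbouring protocadherin rows there held identical counts, since they overlap.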
